A study of Mus musculus with 9 samples.

Results

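A set of 10 genes of the GDNF pathway of spermatogonial stem cells (SSCs) was followed here, chosen by symbol from the counts of 53801 genes. They are the 2 receptor genes Gfra1 and Ret, the 7 transcription factor genes Etv5, Bcl6b, Lhx1, Pou3f1, T, Egr2 and Egr3, and Tspan8, which encodes a surface protein. Each symbol matched 1 row, and all 10 genes passed the filter on low counts, T only through the libraries with 4OHT alone, where it is highest. The 9 libraries of RNA came from cultured mouse SSCs, with 3 libraries in each group. By the study's account, the cells carry Prmt5 flox/flox and Rosa26-CreERT2, a Cre recombinase driven from the Rosa26 locus that works once 4-hydroxytamoxifen (4OHT, 1 µM) is given, so that Prmt5 was deleted in every group, controls included. Prmt5 encodes an arginine methyltransferase. The label of the group 4OHT names no construct, and the group is called 4OHT alone here. Whether its cells were given virus without PRMT5 was not given in the sources used here. If they were not, the virus and the PRMT5 it carried cannot be told apart in comparisons with 4OHT alone. The groups MU and OE are abbreviated in the labels, and were read as cells given lentiviral PRMT5 with a catalytically dead mutation (MU) or wild-type PRMT5 (OE). Whether the libraries came from separate cultures, and whether GDNF was in the medium of these cells, was not given in the sources used here. Libraries of ethanol-treated cells were not analysed here, so no group has endogenous Prmt5 left intact. The p-values then measure the spread between these libraries, which may be technical.

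Prmt5, the deleted gene, was at 31.9, 30.8 and 28.2 CPM (counts per 1000000 counts after TMM scaling) in the 4OHT libraries, at 145, 147 and 146 CPM in MU and at 1072, 1071 and 1085 CPM in OE. Transcripts of the construct and of the locus are not separated in these values. The libraries held 78751996 to 95370711 counts with 4OHT, 192033300 to 365719548 in MU and 79941857 to 154557863 in OE. The first OE library stood apart from the others on the second principal component, and the 10 genes gave the same number of calls without it.

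GDNF is a growth factor made by the somatic niche of the testis, and in mice it sustains the self-renewal of SSCs. It binds the co-receptor GFRA1, which is held on the membrane by a lipid anchor, and the pair activates the receptor tyrosine kinase RET. Signals from RET through SRC family kinases, PI3K and ERK then raise a set of transcription factor genes, among which Etv5 and Bcl6b are known for their part in the maintenance of SSCs.

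The promoter sequences of 6 of the genes were found in RefSeq (GRCm38.p6), and those of Ret, Bcl6b, Pou3f1 and Egr3 were not used here. The 250 bases before a RefSeq start site are shown for Gfra1, Etv5 and T, whose transcripts were much lower with the constructs, and for Egr2, whose transcript differed little. RefSeq start sites can differ from the gene bounds given further on, which came from GENCODE. The windows of Gfra1 and Egr2, and part of that of Etv5, lie inside those bounds. Capitals mark the 6-base core of an ETS site (CCGGAA, the kind of site that ETV5 binds) and the CArG box, a site of serum response factor. The strand is minus for Gfra1 (chr19:58455399-58455648) and Etv5 (chr16:22439571-22439820, the first of its 2 start sites) and plus for T (chr17:8434173-8434422) and Egr2 (chr10:67537619-67537868, the third of its 5 start sites).
Gfra1: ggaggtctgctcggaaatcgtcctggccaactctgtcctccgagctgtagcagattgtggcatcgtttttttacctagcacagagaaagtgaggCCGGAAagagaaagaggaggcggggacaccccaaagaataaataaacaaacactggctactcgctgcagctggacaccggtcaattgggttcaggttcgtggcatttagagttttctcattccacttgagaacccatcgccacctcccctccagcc
Etv5: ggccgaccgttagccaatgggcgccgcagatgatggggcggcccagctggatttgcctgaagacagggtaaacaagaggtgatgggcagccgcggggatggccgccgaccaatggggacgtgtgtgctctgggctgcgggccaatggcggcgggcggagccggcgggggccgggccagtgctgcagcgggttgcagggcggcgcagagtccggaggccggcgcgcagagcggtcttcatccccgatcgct
T: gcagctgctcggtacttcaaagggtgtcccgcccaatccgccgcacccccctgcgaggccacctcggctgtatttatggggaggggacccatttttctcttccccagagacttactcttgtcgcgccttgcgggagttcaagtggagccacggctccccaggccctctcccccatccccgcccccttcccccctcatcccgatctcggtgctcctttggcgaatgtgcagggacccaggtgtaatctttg
Egr2: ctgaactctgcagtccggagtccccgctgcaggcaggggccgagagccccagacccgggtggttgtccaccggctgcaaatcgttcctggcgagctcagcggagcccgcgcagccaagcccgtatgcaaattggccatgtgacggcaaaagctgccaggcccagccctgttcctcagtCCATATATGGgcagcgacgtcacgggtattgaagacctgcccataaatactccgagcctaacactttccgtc
In Gfra1 the ETS core lies at bases -156 to -151 from the start, and in Egr2 the CArG box lies at -72 to -63. Of all 32851 promoter windows of this length, 12% hold the ETS core and 1.47% a CArG box on either strand. The other letters searched on both strands were CCGGAAG (an ETS site that contains the core, in 6.91% of windows), TGACGTCA (a CRE, 1.55%), GCGNGGGCG (an EGR site, 4.70%), GGTGTGA (a T-box site, 3.33%) and TTCNNNGAA (a STAT site, 7.02%). None of these 5 was in any window of the 6 genes, and the core was added after CCGGAAG had been found in none. Outside the sequences shown, the only further matches were in the window of the second Egr2 start site. That window holds 3 matches to the ETS core, of which 2 overlap, and a CArG box. The windows of the fourth and the fifth start sites overlap that of the third, and their CArG box is the one shown.

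Of the 10 genes, 8 were lower with each construct than with 4OHT alone and 0 were higher. However, 4 of the 8 (Ret, Bcl6b, Lhx1 and Egr2) were not called lower when set against fibroblast genes, as described further on. Under that scaling 5.76% of all genes were called lower in MU and 4.67% in OE. The test was edgeR's quasi-likelihood test with Benjamini-Hochberg adjustment over all 22452 genes tested. The 8 were Gfra1, Ret, Etv5, Bcl6b, Lhx1, T, Egr2 and Egr3. T is counted here although it passed the filter only through the 4OHT libraries. Over all genes tested, 56.0% were called in MU and 57.8% in OE against 4OHT alone, 26.5% as lower in MU and 27.9% in OE, and 29.5% and 29.9% as higher. The same 8 genes did not overlap between the groups in either comparison, where 30.1% of all genes were lower without overlap in MU and 30.1% in OE. A fall of at least 2-fold was called for 5 of the 10 genes in MU and 4 in OE, beside 10.2% and 12.5% of all genes. Both comparisons share the 4OHT libraries.

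**Figure D1:**
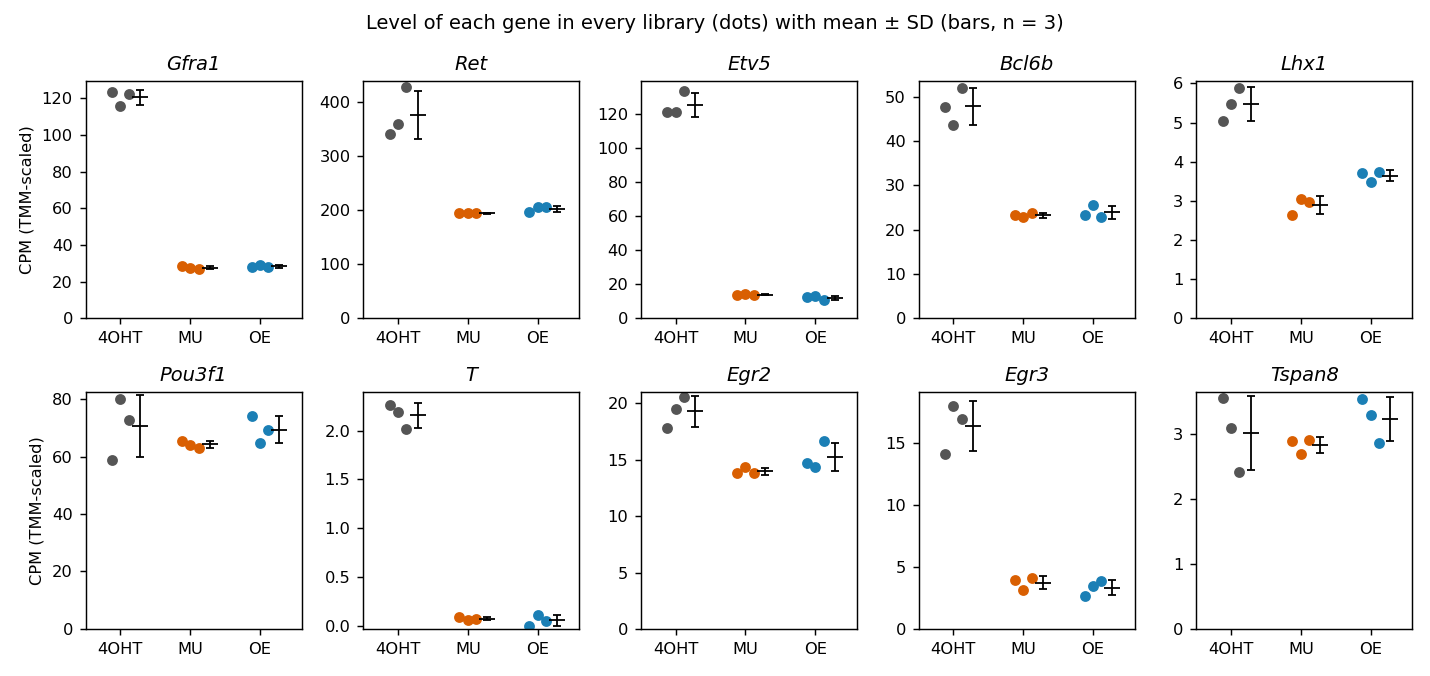
Level of the 10 genes in CPM on linear axes, with a dot for each library and bars for the mean ± SD of 3 libraries in 4OHT, MU and OE. In 8 panels every dot of MU and OE lies below every 4OHT dot, and in the panels of Pou3f1 and Tspan8 the groups overlap. Of all genes tested, 30.1% were lower without overlap in MU and 30.1% in OE. Set against fibroblast genes, Ret, Bcl6b, Lhx1 and Egr2 were not called lower with the constructs. Under that scaling 5.76% of all genes were called lower in MU and 4.67% in OE.

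Gfra1 (ENSMUSG00000025089, chr19:58235604-58455909 on GRCm38), the gene of the GDNF co-receptor, was at 123, 116 and 122 CPM with 4OHT alone. In MU it was at 28.3, 27.6 and 26.7 CPM, and in OE at 27.8, 29.1 and 27.9 CPM. All 6 libraries with a construct thus stood at about the same level, far below the 4OHT libraries. The means were 120.4 ± 4.09, 27.5 ± 0.786 and 28.2 ± 0.717 CPM (SD, n = 3 each), a fall by 2.13 on the log2 scale in MU (standard error 0.052, adjusted p = 1.64e-12 from edgeR) and by 2.09 in OE (standard error 0.053, adjusted p = 1.34e-12 from edgeR). Of the 10616 genes with a mean of at least 10 CPM, 106 had a lower fold change in MU and 205 in OE. Gfra1 overlaps an antisense gene, Gm16277, by 444 bases, which had at most 5 counts in any library.

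Ret (ENSMUSG00000030110, chr6:118151745-118197718), the gene of the kinase, was at 342, 360.0 and 428 CPM with 4OHT alone, at 194, 195 and 194 CPM in MU and at 197, 207 and 205 CPM in OE. The 4OHT libraries differed among themselves by more than the constructs did, yet the lowest of them was well above all 6 others. Ret fell by 0.95 on the log2 scale in MU (standard error 0.069, adjusted p = 4.30e-08 from edgeR) and by 0.89 in OE (standard error 0.069, adjusted p = 7.37e-08 from edgeR). Set against fibroblast genes, Ret was not called lower in either construct. The ratio of Ret to Gfra1, as counts per exon base, was 2.25 to 2.83 with 4OHT alone, 5.56 to 5.87 in MU and 5.74 to 5.96 in OE. The ratio did not overlap between 4OHT alone and either construct (two-sided exact permutation test over 3 libraries against 3, p = 0.1 in both comparisons, the smallest this design allows, and 0.1 after adjustment over the 10 such tests of 5 ratios).

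**Figure D2:**
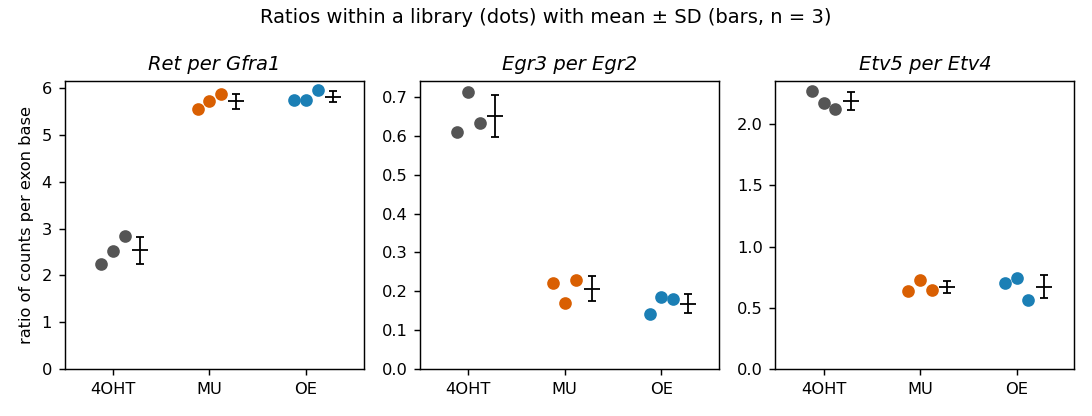
Ratios of counts per exon base within each library (dots), with the mean ± SD of 3 libraries (bars), for Ret per Gfra1, Egr3 per Egr2 and Etv5 per Etv4. Ret per Gfra1 is higher in all MU and OE libraries than with 4OHT alone, while the other ratios are lower.

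Among the transcription factors, Etv5, T and Egr3 fell the most. Etv5 (ENSMUSG00000013089, chr16:22381309-22439719) encodes an ETS factor needed for SSCs to persist. It was at 121, 122 and 133 CPM with 4OHT alone, at 13.96, 14.05 and 13.4 CPM in MU and at 12.4, 13.1 and 10.8 CPM in OE. Its libraries with a construct held far less of the transcript than those with 4OHT alone. The log2 fold change was -3.18 in MU (standard error 0.074, adjusted p = 1.04e-12 from edgeR) and -3.38 in OE (standard error 0.076, adjusted p = 5.14e-13 from edgeR). Only 10 of the 10616 genes with a mean of at least 10 CPM had a lower fold change in MU, and 14 in OE.

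T (ENSMUSG00000062327, chr17:8434423-8442496), which encodes the T-box factor Brachyury, was scarce throughout. It was at 2.27, 2.19 and 2.02 CPM with 4OHT alone and at 0.0911, 0.0608 and 0.0715 CPM in MU, where it had 58 counts over 3 libraries. In OE it was at 0, 0.118 and 0.0510 CPM, with 19 counts over 3 libraries. The gene was therefore near the limit of detection with each construct. It passed the filter on low counts only through the 4OHT libraries, so its adjusted p-values are no separate support for a fall. A read pair was taken as about 4 counts, since the value 4 was 1.35 to 1.84 times as frequent as its neighbours 3 and 5, and the floor was set at 3 read pairs, or 12 counts, per library. All 3 OE libraries were at or under this floor, and T was at least 18.4-fold lower in OE than with 4OHT alone (adjusted p = 2.43e-06 from edgeR). In MU it fell by 4.86 on the log2 scale (standard error 0.52, adjusted p = 2.36e-06 from edgeR), a value that rests on few counts.

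Egr3 (ENSMUSG00000033730, chr14:70077203-70082614) encodes a zinc finger factor of the early growth response family, whose genes respond quickly to ERK signals. It was at 14.1, 18.0 and 16.9 CPM with 4OHT alone, at 3.98, 3.14 and 4.08 CPM in MU and at 2.68, 3.43 and 3.89 CPM in OE. The ranges of MU and OE overlapped each other and lay well below 4OHT alone. The fall was by 2.13 on the log2 scale in MU (standard error 0.15, adjusted p = 3.83e-08 from edgeR) and by 2.28 in OE (standard error 0.16, adjusted p = 2.07e-08 from edgeR).

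Egr2 (ENSMUSG00000037868, chr10:67535475-67542188), a close relative of Egr3, changed far less. It was at 17.8, 19.5 and 20.6 CPM with 4OHT alone, at 13.8, 14.3 and 13.8 CPM in MU and at 14.7, 14.4 and 16.7 CPM in OE. Its libraries with a construct were all below those with 4OHT alone, by a narrow margin in the third OE library. Set against fibroblast genes, however, Egr2 was called higher in both constructs, as were 68.1% of all genes in MU and 73.8% in OE. The log2 fold change was -0.47 in MU (standard error 0.082, adjusted p = 0.000238 from edgeR) and -0.34 in OE (standard error 0.083, adjusted p = 0.00293 from edgeR). The ratio of Egr3 to Egr2 per exon base went from 0.609 to 0.712 with 4OHT alone to 0.169 to 0.228 in MU and 0.141 to 0.184 in OE (two-sided exact permutation test, p = 0.1 for each construct, the smallest possible).

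Bcl6b fell by amounts like those of Ret, and so did Lhx1 in MU, while in OE Lhx1 fell less. Like Ret, Bcl6b and Lhx1 were not called lower when set against fibroblast genes. Bcl6b (ENSMUSG00000000317, chr11:70224128-70229798) encodes a zinc finger repressor that SSCs need in culture. It was at 47.7, 43.7 and 52.0 CPM with 4OHT alone, at 23.2, 22.7 and 23.8 CPM in MU and at 23.2, 25.6 and 22.9 CPM in OE. The levels of both constructs overlapped each other and lay well below 4OHT alone. Its log2 fold change was -1.04 in MU (standard error 0.072, adjusted p = 2.77e-08 from edgeR) and -0.999 in OE (standard error 0.073, adjusted p = 3.90e-08 from edgeR).
Lhx1 (ENSMUSG00000018698, chr11:84518284-84525535), the gene of a LIM homeodomain factor, was at 5.03, 5.49 and 5.89 CPM with 4OHT alone, at 2.63, 3.05 and 2.98 CPM in MU and at 3.72, 3.47 and 3.75 CPM in OE. Every OE library lay between the MU and the 4OHT libraries. The log2 fold change was -0.92 in MU (standard error 0.13, adjusted p = 2.54e-05 from edgeR) and -0.59 in OE (standard error 0.13, adjusted p = 0.00128 from edgeR).

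Pou3f1 and Tspan8 did not pass the test against 4OHT alone. Pou3f1 (ENSMUSG00000090125, chr4:124656807-124660655), which encodes a POU domain factor, was at 58.9, 80.2 and 72.8 CPM with 4OHT alone, at 65.5, 64.1 and 63.0 CPM in MU and at 74.0, 64.6 and 69.1 CPM in OE. The first 4OHT library lay below all 6 libraries with a construct, and the third lay among those of OE. The log2 fold change was -0.14 in MU (95% interval -0.33 to 0.05, adjusted p = 0.211 from edgeR) and -0.03 in OE (95% interval -0.22 to 0.16, adjusted p = 0.806 from edgeR). Without the first 4OHT library Pou3f1 was called lower, by -0.27 in MU (adjusted p = 0.00285 from edgeR) and -0.16 in OE (adjusted p = 0.0486 from edgeR). The second 4OHT library lay above all 6 libraries with a construct, and without it Pou3f1 was not called. It was then at -0.03 in MU (adjusted p = 0.829 from edgeR) and 0.08 in OE (adjusted p = 0.464 from edgeR). An antisense gene, Gm2164, overlaps Pou3f1 by 363 bases and had at most 70 counts in a library.
Tspan8 (ENSMUSG00000034127, chr10:115816832-115849893) encodes a tetraspanin on the surface of undifferentiated spermatogonia. It was at 3.56, 3.10 and 2.42 CPM with 4OHT alone, at 2.89, 2.70 and 2.92 CPM in MU and at 3.54, 3.30 and 2.87 CPM in OE. The 4OHT libraries spanned most values of the constructs. Its log2 fold change was -0.09 in MU (95% interval -0.44 to 0.26, adjusted p = 0.669 from edgeR) and 0.10 in OE (95% interval -0.26 to 0.45, adjusted p = 0.642 from edgeR). Tspan8 overlaps an antisense gene, 4930422I22Rik, over its whole span of 33062 bases, and since the strand of the reads is not stated, the source of these reads cannot be told apart.

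**Figure D3:**
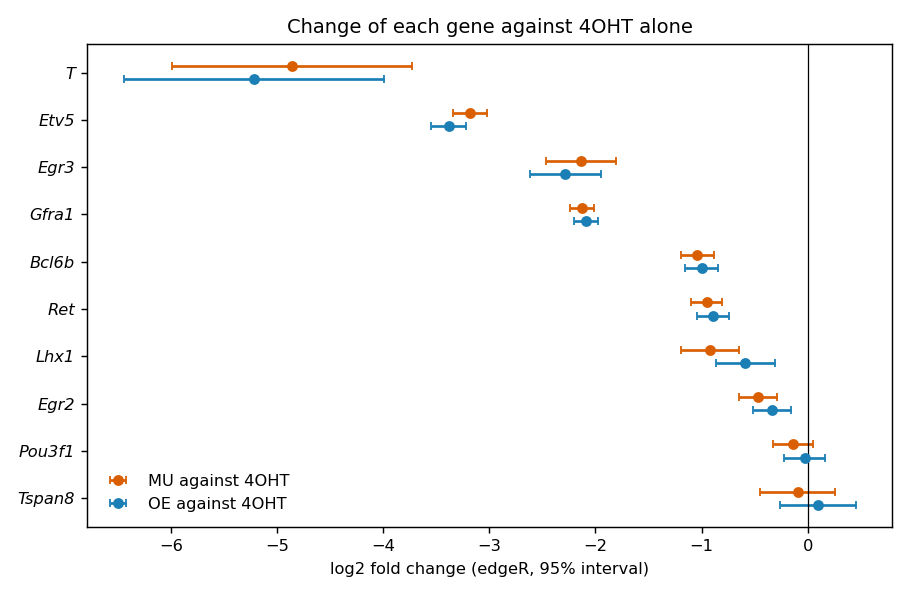
Log2 fold change of each gene in MU (orange) and OE (blue) against 4OHT alone, with 95% intervals from edgeR, ordered by the change in OE. The intervals of Pou3f1 and Tspan8 include 0 and those of the other 8 genes do not. With TMM scaling, as plotted, 26.5% of all genes tested were called lower in MU and 27.9% in OE. Ret, Bcl6b, Lhx1 and Egr2 were not called lower when set against fibroblast genes. Under that scaling 5.76% of all genes were called lower in MU and 4.67% in OE. For T in OE the fitted value is no bound, since all 3 OE libraries were at or under 12 counts.

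Per kilobase of exon, the levels of the genes took another order with the constructs than with 4OHT alone. With 4OHT alone the order was Ret at 55.7, Etv5 at 30.6, Gfra1 at 22.0, Pou3f1 at 18.3, Bcl6b at 12.8, Egr2 at 5.68, Egr3 at 3.71, Tspan8 at 1.78, Lhx1 at 1.34 and T at 0.932 CPM per kilobase. In OE, Ret was again highest at 30.0 CPM per kilobase. Pou3f1 came next at 18.0, followed by Bcl6b at 6.43, Gfra1 at 5.16, Egr2 at 4.49 and Etv5 at 2.94 CPM per kilobase. Etv5 thus went from the second to the sixth place. In MU the order of these 6 genes was the same, with Ret at 28.8, Pou3f1 at 16.7, Bcl6b at 6.25, Gfra1 at 5.03, Egr2 at 4.11 and Etv5 at 3.36 CPM per kilobase. Gfra1 and Pou3f1 with 4OHT alone, at 22.0 ± 0.746 and 18.3 ± 2.81 CPM per kilobase (SD, n = 3 each), were the nearest neighbours among the 5 highest genes, and their difference was little more than the SD of Pou3f1.

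The direct comparison of MU with OE asks whether the mutation made a difference for these genes. Of the 10 genes, 0 passed the adjusted threshold with edgeR, and 0 with DESeq2, while 3.17% of all genes tested did with edgeR (2.12% higher and 1.06% lower in MU). Scaled to fibroblast genes, 7 of the 10 were called lower in MU, at log2 differences of -0.69 (Lhx1) to -0.39 (Gfra1), where 46.2% of all genes were called lower and their median was -0.35. At an unadjusted p under 0.05 there were 2 of 10, beside 12.4% of all genes. These were Etv5, higher in MU in all 3 libraries with a log2 difference of 0.20 (95% interval 0.04 to 0.35, adjusted p = 0.221 from edgeR), and Lhx1, lower in MU in all 3 libraries with -0.34 (95% interval -0.61 to -0.06, adjusted p = 0.251 from edgeR). Over the 17 alternatives the adjusted p ranged from 0.0523 to 0.570 for Etv5 and from 0.000726, reached when scaled to fibroblast genes, to 0.643 for Lhx1 (edgeR, or DESeq2 in 1 of them). Without overlap between the groups, Etv5 was higher and Ret, Lhx1 and Egr2 were lower in MU, 4 of 10 beside 25.9% of all genes. For Gfra1 the difference was -0.04 (95% interval -0.15 to 0.07) and for Ret -0.06 (95% interval -0.21 to 0.09). For Bcl6b the interval was -0.20 to 0.11, for Egr2 -0.30 to 0.05, for Pou3f1 -0.30 to 0.08, for Egr3 -0.18 to 0.48 and for Tspan8 -0.54 to 0.16. In T the interval of -0.92 to 1.64 says little, because both groups had few counts. Prmt5 itself differed by -2.88 on the log2 scale between MU and OE, so the amount of Prmt5 mRNA and the mutation cannot be told apart in this comparison.

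**Figure D4:**
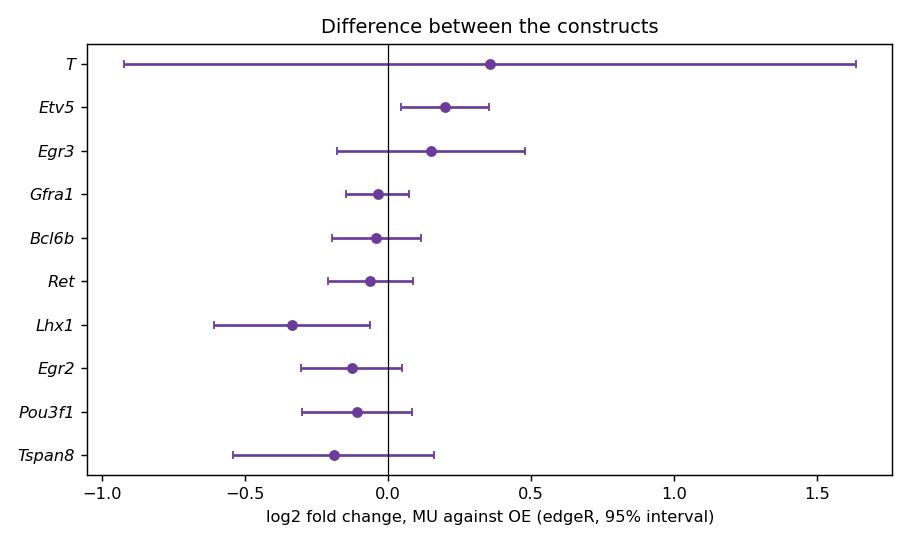
Log2 difference of each gene between MU and OE, with 95% intervals from edgeR and the genes in the same order as in the plot of changes against 4OHT alone. Only the intervals of Etv5 and Lhx1 leave out 0, and neither gene passed after adjustment. Of all genes tested, 12.4% had an unadjusted p under 0.05 from edgeR.

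Markers of cell types moved between the same groups, and their part in the falls was not tested. Of 12 germ cell genes, 12 rose with each construct, with a median log2 fold change of 0.87 in MU and 1.02 in OE, and their summed level was 1927 to 2035 CPM with 4OHT alone, 3447 to 3570 CPM in MU and 3754 to 3789 CPM in OE. Of 12 fibroblast genes, 12 fell in OE (median -1.14), while in MU 11 fell and Dcn rose (median -0.75). Their sum was 10157 to 12195 CPM with 4OHT alone, 5635 to 5698 CPM in MU and 4383 to 4477 CPM in OE. The study grew SSCs on mouse embryonic fibroblasts, whose RNA a library may contain. All 11 macrophage genes tested rose with each construct, with a median log2 fold change of 2.76 in MU and 4.08 in OE and a summed level that went from 175 to 190.4 CPM with 4OHT alone to 1127 to 1162 CPM in MU and 2222 to 2346 CPM in OE. Lyz2 made up most of that sum, with a mean of 151 CPM with 4OHT alone. Ptprc, which marks blood cells, went from 0.696 CPM with 4OHT alone to 11.6 CPM in MU and 22.4 CPM in OE, and Csf1r, a receptor of macrophages, from 1.20 to 8.13 and 20.4 CPM. Of 8 genes of Sertoli and other somatic cells of the testis that were tested, 3 fell and 2 rose in MU and 4 fell and 2 rose in OE, with a summed level of 121 to 129 CPM with 4OHT alone, 56.7 to 59.8 CPM in MU and 48.9 to 52.6 CPM in OE. In bulk RNA, fewer cells of a type and less RNA per cell cannot be told apart.

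The levels of the 10 genes were therefore also set against germ cell and fibroblast genes. Scaled to the summed counts of the germ cell genes, all 10 genes were lower in both constructs, Pou3f1 by -0.97 in MU and -0.96 in OE and Tspan8 by -0.92 and -0.83 on the log2 scale. Under this scaling 64.4% of all genes tested were called lower in MU and 68.9% in OE, and 6.24% and 5.63% higher. The median of all genes tested was -0.79 in MU and -0.91 in OE, so Pou3f1 and Tspan8 stayed close to it.
Scaled to the summed counts of the fibroblast genes, 4 of the 10 genes were called lower in both constructs, and 3 were called higher in MU and 6 in OE. Of all genes, 5.76% were then called lower in MU and 4.67% in OE, 68.1% and 73.8% were called higher, and the median was 0.996 in MU and 1.33 in OE. These 4 were T (-3.91 and -3.92), Etv5 (-2.23 and -2.07), Gfra1 (-1.17 and -0.78) and Egr3 (-1.17 and -0.97). Ret was at 0.01 in MU and 0.43 in OE, Bcl6b at -0.08 and 0.32, Lhx1 at 0.04 and 0.73 and Egr2 at 0.49 and 0.98. The falls of Etv5, T, Gfra1 and Egr3 were thus larger than that of the summed fibroblast genes, and those of Ret, Bcl6b, Lhx1 and Egr2 were not. That sum leans on Fn1, whose mean was 4957 CPM with 4OHT alone. Under this scaling 7 of the 12 fibroblast genes were called higher and 3 lower in MU, and 8 and 3 in OE. With TMM the fibroblast median was -0.75 in MU, a smaller fall than those of Ret, Bcl6b and Lhx1. In OE it was -1.14, a larger fall than theirs.

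The other genes of the pathway were taken as lists by role. Of 5 ligand genes of the GDNF family, 2 fell and 2 rose with each construct. Gdnf itself, at 5.89 CPM with 4OHT alone, fell to 1.57 CPM in MU (log2 fold change -1.91, adjusted p = 7.45e-06 from edgeR) and 1.06 CPM in OE (-2.49, adjusted p = 8.14e-07 from edgeR). Artn, the ligand of GFRA3, fell by 2.14 and 2.39, while Nrtn, the ligand of GFRA2, rose by 0.61 and 0.69 and Gdf15, a distant relative that signals through GFRAL, by 1.09 and 1.14 on the log2 scale.
Among 5 tested receptor genes beside Gfra1 and Ret, 4 fell and 1 rose with each construct. The gene that rose was Gfra3, the co-receptor of artemin, from 1.83 CPM with 4OHT alone to 11.2 CPM in MU and 12.1 CPM in OE (log2 fold changes 2.61 and 2.73, adjusted p = 1.13e-09 and 6.33e-10 from edgeR). Gfra2 fell from 7.92 CPM to 3.23 and 2.90 CPM. Ncam1, an adhesion protein that can bind GDNF without RET, fell by 1.81 and 1.92 on the log2 scale, and Sdc3, a heparan sulfate proteoglycan that binds GDNF, by 1.22 and 1.17. Gfral had 0 CPM in every group.

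Of 33 genes for signalling components under RET, 15 fell and 5 rose in MU, and 16 fell and 7 rose in OE, with medians of -0.09 and -0.14 beside 0.04 and 0.02 over all genes tested. This share of falls, 15 and 16 of 33, compares with the 26.5% and 27.9% of all genes. The adaptor genes Grb10 (-1.31 in MU and -1.59 in OE), Dok1 (-1.61 and -1.59) and Shc1 (-1.06 and -1.06) and the PI3K subunit gene Pik3r1 (-0.89 and -0.92) fell the most among those with a mean of at least 1 CPM. Of the 9 genes of ERK feedback, all 9 fell with each construct, with medians of -1.97 in MU and -2.23 in OE. They include the phosphatase genes Dusp4 (-3.37 and -3.56) and Dusp6 (-2.91 and -2.98), and Spry4 (-3.02 and -3.32) and Spred3 (-2.25 and -2.80), whose products curb signalling to ERK.
Of 11 relatives and cofactors of the transcription factors, 6 fell and 2 rose in MU, and 7 fell and 1 rose in OE. Etv1 (-2.47 and -2.99) and Etv4 (-1.47 and -1.67), the closest relatives of Etv5, fell too. Etv5 fell further than Etv4, and the ratio of Etv5 to Etv4 per exon base was 2.12 to 2.27 with 4OHT alone, 0.635 to 0.726 in MU and 0.567 to 0.747 in OE (two-sided exact permutation test, p = 0.1 for each construct, the smallest possible). Pou3f3 fell by 1.35 and 1.97, and Nab2, a corepressor that EGR factors recruit, by 0.88 and 0.80 on the log2 scale.

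**Figure D5:**
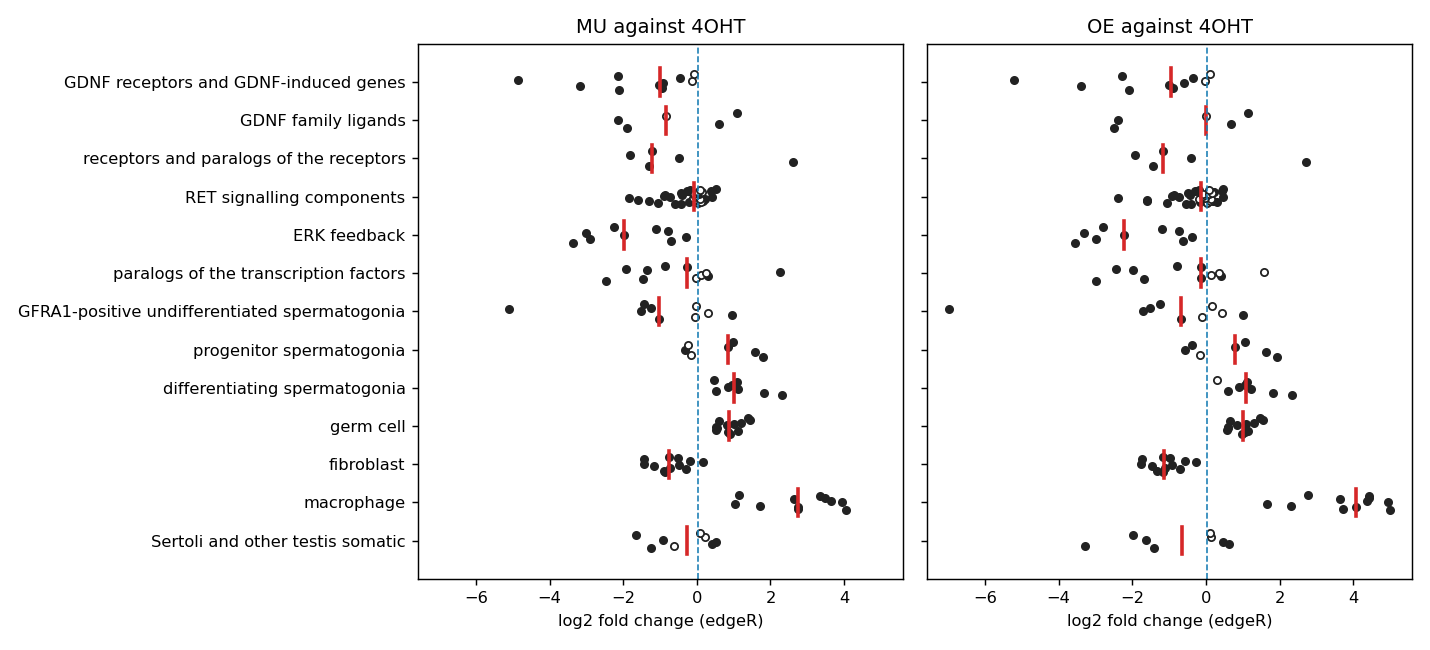
Log2 fold change of each gene (points) in MU and OE against 4OHT alone by list, filled where the adjusted p from edgeR is under 0.05 and open otherwise, with a red bar at the list's median and a dashed line at the median of all genes tested. The 10 genes, the other receptor genes, the ERK feedback genes and the fibroblast genes lie mostly left of the dashed line. The differentiating spermatogonia, germ cell and macrophage genes lie right of it. All values are scaled by TMM only.

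Markers of spermatogonial states were set beside the pathway. Of 9 genes of GFRA1-positive undifferentiated spermatogonia, 5 fell and 1 rose with each construct, with medians of -1.03 in MU and -0.67 in OE. Nanos2, an RNA-binding factor of the most undifferentiated cells, went from 6.93 CPM with 4OHT alone to 3.40 CPM in MU and 4.37 CPM in OE, and Ccnd2, a D-type cyclin, from 592 CPM to 219.6 and 247 CPM. Plvap fell by 1.24 and 1.51 on the log2 scale, and Pax7 rose by 0.965 and 1.001. Id4, a marker of SSCs, was at 27.4, 26.2 and 25.4 CPM in 4OHT, MU and OE and did not pass the test (adjusted p = 0.547 in MU and 0.264 in OE from edgeR).
Of 7 progenitor genes, 4 rose with each construct, while 1 fell in MU and 2 in OE. Those that rose were Neurog3 (1.80 in MU and 1.92 in OE), Sox3 (1.58 and 1.62), Lin28a (0.99 and 1.06) and Upp1 (0.86 and 0.79). Of 8 genes of differentiating spermatogonia, 8 rose in MU and 7 in OE, with medians of 1.01 and 1.08, close to those of the germ cell list.

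The lists, too, depended on what they were set against. Scaled to germ cell genes, all 9 ERK feedback genes were lower in both constructs, as were all 33 signalling components, 8 of the 9 genes of GFRA1-positive cells and 4 of the 5 receptor genes, with Gfra3 higher. Of all genes, 64.4% in MU and 68.9% in OE were lower under this scaling. Of the differentiating genes 4 were then higher and 2 lower in both constructs, and of the progenitor genes 3 were higher and 3 lower. Scaled to fibroblast genes, 5 of the 9 ERK feedback genes were lower in both constructs, while 2 were higher in MU and 3 in OE. Of the signalling components, 27 of 33 were then higher in MU and 30 in OE, and all 7 progenitor and all 8 differentiating genes were higher in both, beside 68.1% of all genes in MU and 73.8% in OE. Of the 9 genes of GFRA1-positive cells, 4 were higher and 2 lower in MU (median -0.08), and 5 were higher and 1 was lower in OE (median 0.63). Of the 5 receptor genes, 2 were lower and 2 higher in MU, and 1 was lower and 3 higher in OE.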

How the data were processed

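The 9 RNA-seq libraries were grouped by the titles in the labels into 4OHT, MU and OE. The deposited table holds raw counts, all of them whole numbers, for 53801 genes. By the methods of the study, reads were trimmed with BBmap and Trimmomatic 0.39, aligned to GRCm38 with HISAT2 2.2.1 and quantified with StringTie 2.2.1. The step from StringTie to whole numbers, the strand of the libraries and the counting of reads with several alignments are not given in the sources used here, so members of gene families may share reads. Totals per library were 78751996 to 365719548 counts, and the floor of 12 counts corresponds to 0.0317 to 0.158 CPM, which covers counting error only.

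Counts were tested in R 4.3.3 with edgeR 4.0.16 (filterByExpr with minimum count 10 and minimum total count 15, TMM, quasi-likelihood test, group as the only factor, all 9 libraries in 1 model). Adjustment (Benjamini-Hochberg) was over the 22452 genes tested, with a threshold of 0.05. Exon lengths and coordinates came from GENCODE vM21 (GRCm38), and promoter sequences from RefSeq. The steps were tested on simulated data in which a small share of genes changed, in either direction at random. That setting does not cover comparisons in which most genes were called, as against 4OHT alone here. The text names the 10 genes, Prmt5, from each list up to 4 genes called in OE against 4OHT alone with the largest change and a mean of at least 1 CPM, and for each of the 10 genes the 3 nearest in pattern, of which 1 is not reported here. Other genes it names (Id4, Dcn, Csf1r, Lyz2, Gfral) were chosen after their values were seen. The genes and lists were chosen with earlier results of these data known. The alternatives were DESeq2 1.42.0, total counts, no filter, only the groups compared, counts divided by 4, a replicate block, scaling to germ cell or fibroblast genes and leaving out each library. Lists of Sertoli and other somatic genes, macrophage genes and the other lists were counted without a set test, and Itgam was left out of the macrophage list because its symbol matched 2 gene IDs.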

Additional observations from a re-analysis of the deposited data

How the results depend on the processing

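With 8 genes called lower against 4OHT alone in each comparison and 0 between MU and OE, the counts were the same under DESeq2, total counts, no filter, only the groups compared and counts divided by 4. Leaving out 1 library gave 8 to 9 in MU and in OE against 4OHT alone, and 0 between the constructs. With the replicate number as a block the counts of the 10 genes were 8, 8 and 0, and those of all genes 12443, 12807 and 674. The labels do not say that a number marks a shared culture. Same-numbered libraries of different groups deviated together in 4 of 9 pairs at a correlation over 0.1 (range -0.03 to 0.15). Of the 18 pairs with different numbers, 1 was over 0.1 (range -0.16 to 0.11). Not every library correlated best with its own number. Scaling to fibroblast genes, chosen after seeing the data, gave 7 calls in MU (4 lower and 3 higher), 10 in OE (4 lower and 6 higher) and 7 between MU and OE (all lower in MU), and scaling to germ cell genes gave 10, 10 (all lower) and 0.

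The 8 genes kept their direction against 4OHT alone in every alternative other than scaling to fibroblast genes. Under that scaling, in MU Ret changed to 0.0115, Lhx1 to 0.0380, Pou3f1 to 0.82, Egr2 to 0.49 and Tspan8 to 0.85, and in OE Ret to 0.43, Bcl6b to 0.32, Lhx1 to 0.73, Pou3f1 to 1.29 and Egr2 to 0.98. Between MU and OE it turned Etv5 to -0.16 and Egr3 to -0.20. With total counts Tspan8 in MU was at 0.0186 and Pou3f1 in OE at 0.0599. Scaled to germ cell genes, Tspan8 in OE was at -0.83, and between MU and OE Gfra1 was at 0.0612, Ret at 0.0357 and Bcl6b at 0.0556. Without the filter Gfra1 was at 0.00293 between MU and OE. Leaving out 1 library in turn gave a range across 0 for Tspan8 in MU (-0.235 to 0.0281) and in OE (-0.0509 to 0.214), for Pou3f1 in OE (-0.159 to 0.0792) and, between MU and OE, for T (-0.120 to 1.19) and Bcl6b (-0.0703 to 0.00857). The shift of all genes was also moved by total counts, with medians of 0.16 in MU and 0.11 in OE. Where scaling decides a direction, the cause was not tested. The number of genes called between MU and OE ranged from 400 (without the second MU library) to 10493 (scaled to fibroblast genes), against 712. T is limited by depth in both constructs, and with 3 libraries a group the exact tests cannot go below p = 0.1.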

Other observations

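The genes nearest in pattern were sought over the 9 libraries, as the smallest root mean square difference of centred log2 CPM, among genes with a mean of at least 1 CPM. The measure is a description, since all libraries of a group share that group's shift.

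For Etv5 the nearest genes were Gm5424 (0.085), Spry4 (0.094) and Ass1 (0.0995). Spry4 encodes an inhibitor of ERK signalling, and Ass1, a urea cycle enzyme, went from 688 CPM with 4OHT alone to 84.1 CPM in MU and 73.8 CPM in OE. For Gfra1 they were Fam78b (0.072), Crabp1 (0.085) and Fosl1 (0.093). Crabp1, which encodes a protein that binds retinoic acid in the cytosol, was the most abundant of these, at 784, 185 and 176 CPM. Near Egr3 were Klhdc8a (0.107), Magee1 (0.146) and Pcdh17 (0.153).

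For Ret they were Gtse1 (0.030), Nid2 (0.033) and Sipa1l2 (0.037), and for Bcl6b Cyfip1 (0.045) and Ripk1 (0.057). Lhx1, whose OE level lay between those of MU and 4OHT alone, was nearest to Gusb (0.059), Tkt (0.074) and Plin2 (0.085), which encode a lysosomal glucuronidase, a pentose phosphate enzyme and a lipid droplet protein. Plin2 was at 237, 119 and 157 CPM. Egr2 was nearest to Cdyl2 (0.044), Pdxk (0.045) and Gm6136 (0.048), Pou3f1 to Zfp444 (0.060), Tcf3 (0.060) and Wdr46 (0.066), and Tspan8 to Zfp53 (0.080), Zdhhc21 (0.088) and Psenen (0.089). T had no close neighbour, with Sox7 at 0.781, Dach1 at 0.817 and Prl2c3 at 0.864, all of them lower with the constructs. Its pattern rests on 58 counts in MU and 19 in OE, so these distances cannot show that it is distinct. Among the 10 genes themselves, the nearest pair was Ret and Bcl6b (0.083), followed by Ret and Lhx1 (0.156) and Pou3f1 and Egr2 (0.187).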
